A study of Homo sapiens with 9 samples.

Results

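The genes described here are the cytosolic ribosomal protein genes, with Eef1a1 and Tpt1, in 9 orthotopic tumors of a murine anaplastic thyroid cancer model. A gene was included when its symbol began with Rpl or Rps and a number, or was Rpsa, Rplp0, Rplp1 or Rplp2, and 7 kinase genes named Rps6k were left out. Eef1a1 and Tpt1, whose mRNAs begin like those of ribosomal proteins, were added. This gave 81 of the 17369 genes of the expression table. They comprised 42 genes of the large ribosomal subunit, 29 of the small subunit, 8 paralogues or genes that only share the name, and Eef1a1 and Tpt1. The 71 subunit genes are called canonical below.

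TBP3743 is a cell line from a thyroid tumor of a B6129SF1 mouse in which Braf V600E was expressed and Trp53 was deleted in the thyroid only, so the tumor cells of all 9 tumors carry both alterations. Adapted cells are a line recovered from TBP3743 tumors after passage round 3 under the skin of C57BL/6 mice. All groups were injected into the left thyroid of female mice aged 6 weeks, and tumors were collected 14 days later. The original/B6129SF1 group held original cells in B6129SF1 hosts, the adapted/B6129SF1 group adapted cells in B6129SF1 hosts, and the adapted/B6 group adapted cells in C57BL/6 hosts, with 3 tumors from separate mice in each. The adapted cells are 1 derived line.

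The cytosolic ribosome joins amino acids into protein and consists of a small subunit, which reads the mRNA, and a large subunit, which forms the peptide bond. Cells make most ribosomal proteins in matched amounts, and unassembled ones are degraded. Their mRNAs begin with a terminal oligopyrimidine (TOP) tract, through which mTORC1 and Larp1 control translation, so the mRNA level measured here is not the rate at which these proteins are made. Growing tumors use many ribosomes, and Rpl5 and Rpl11 can also bind Mdm2, the ubiquitin ligase of p53. Ribosomal protein genes have many processed pseudogenes, and how the alignment shared reads with these copies is not given in the sources used here, so the levels of single members are uncertain to that extent.

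RNA of whole tumors was measured as FPKM, fragments scaled by transcript length and by the size of the library. Summed FPKM ran from 457983 to 540514 per tumor, and absolute depth is unknown. The thyroid markers Tshr, Slc5a5 and Foxe1 were at most 0.0703, 0.142 and 0.248 FPKM in any tumor, Tg ranged from 0.0153 to 31 FPKM, and Nkx2-1 and Krt8 were present in every tumor at 23.5 to 44.5 and 153 to 615 FPKM. Trp53 mRNA was 7.14 to 15.6 FPKM, which cannot be assigned to tumor or host cells. The 18 skeletal muscle markers took 7.52% of all FPKM in adapted/B6129SF1 replicate 3 and 1.41% in adapted/B6 replicate 1, while no other tumor exceeded 0.165%. Values for the ribosomal protein genes were therefore also taken without these tumors. In whole tumors, fewer cells of a type and less RNA per cell cannot be told apart.

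Ribosomal protein mRNA made up a large share of every tumor's expression table, and the share overlapped between the 3 groups. The 81 genes took 23.1%, 27.3% and 22.6% of all FPKM in original/B6129SF1 replicates 1, 2 and 3. They took 23.1%, 24.6% and 20.3% in the adapted/B6129SF1 tumors and 19.5%, 27.0% and 22.8% in the adapted/B6 tumors. The group means were 24.3% ± 2.58, 22.7% ± 2.18 and 23.1% ± 3.76 (mean ± SD of 3 tumors each). Both the highest and the lowest adapted tumor were adapted/B6 tumors, and the group means lay closer together than the tumors of any one group. Without the muscle markers in the total, adapted/B6129SF1 replicate 3 stood at 22.0% and adapted/B6 replicate 1 at 19.8%.

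Levels differed widely between members, and their order was nearly the same in every tumor. Of the 81 genes, 48 averaged more than 1000 FPKM, 27 averaged 100 to 1000 and 6 averaged less than 100, and 61 of the 100 most highly expressed genes of the table were members. Tpt1, which encodes translationally controlled tumor protein, had the highest mean of all genes at 7616 FPKM. Eef1a1, the factor that brings aminoacyl-tRNA to the ribosome, was next at 6693 FPKM, and together they took 12.4% of the FPKM of the 81 genes. Rps26, a small-subunit protein at the mRNA exit channel, followed at 2767 FPKM. The canonical genes ranged from 86.6 to 2767 FPKM with a median of 1271. Only Rpl21, Rps15a, Rpl15 and Rpl22, named after their values were seen, averaged under 200 FPKM, at 86.6, 116, 141 and 164. Between any pair of tumors, Spearman's rho of the 71 canonical levels was at least 0.963, a description across genes that share length and annotation between tumors.

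**Figure D1:**
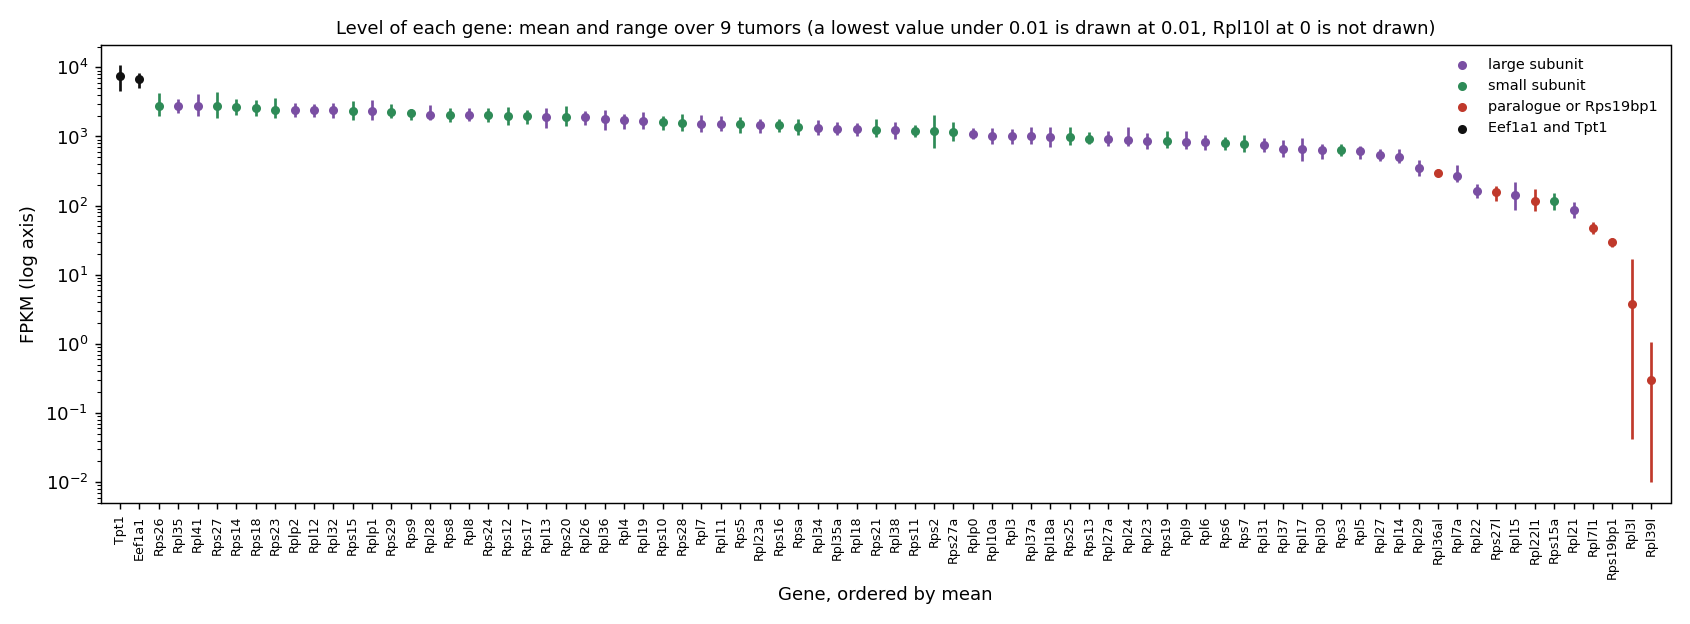
Mean FPKM (points) and range over the 9 tumors (vertical lines) of each member on a log axis, ordered by mean and coloured by class. Tpt1 and Eef1a1 stand at the left at 7616 and 6693 FPKM, most subunit genes lie between 100 and 2767 FPKM, and the lowest genes at the right are paralogues, with Rpl3l having the widest range.

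The canonical genes moved together from tumor to tumor, and the tumors that stood out were single tumors rather than a group. The median canonical gene was at 1259, 1776 and 1165 FPKM in original/B6129SF1 replicates 1, 2 and 3. It was at 1161, 1308 and 1332 FPKM in the adapted/B6129SF1 tumors and at 1042, 1528 and 1274 FPKM in the adapted/B6 tumors. Original/B6129SF1 replicate 2 was thus the highest tumor and adapted/B6 replicate 1 the lowest, a 1.71-fold range, and the groups overlapped. Of the 71 canonical genes, 54 had their highest value in original/B6129SF1 replicate 2 and 15 in adapted/B6 replicate 2. In adapted/B6 replicate 1, 62 of the 71 had their lowest value. Adapted/B6 replicate 2 exceeded replicate 1 of the same group for 70 of 71 genes and replicate 3 for 71 of 71. Original/B6129SF1 replicate 2 exceeded replicates 1 and 3 of its group for 69 and 68 of 71. Adapted/B6129SF1 replicate 2 exceeded replicate 1 for 66 of 71 and replicate 3 for 50 of 71.

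**Figure D2:**
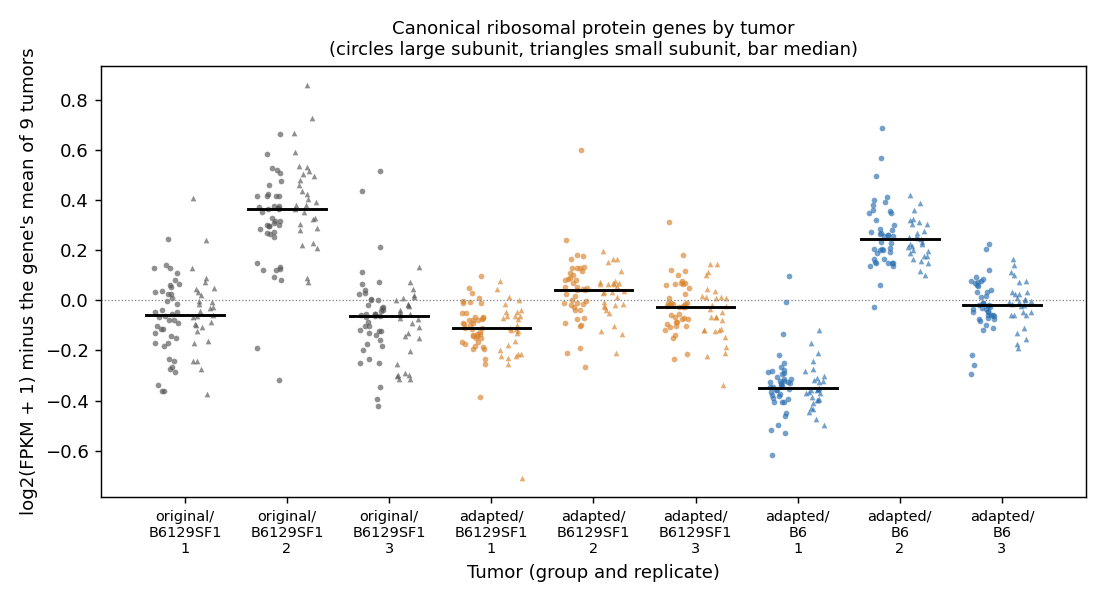
Each canonical gene's log2(FPKM + 1) minus its own mean over the 9 tumors, by tumor, with circles for the large subunit, triangles for the small subunit and a bar at the median. The whole cloud sits at 0.36 in original/B6129SF1 replicate 2, at 0.25 in adapted/B6 replicate 2 and at -0.35 in adapted/B6 replicate 1, and between -0.11 and 0.04 in the other 6 tumors.

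This shared movement made the spread within groups large for genes of such high level. The median standard deviation of log2(FPKM + 1) within groups was 0.24 for the canonical genes, against 0.18 for all 10263 genes tested and 0.19 for the 618 other genes above 100 FPKM. After each tumor's median canonical level was subtracted, it was 0.10. Over the 9 tumors the median Pearson's r between pairs of canonical genes was 0.82, and 56 of 71 genes had r above 0.8 with the canonical median. For deviations from the group means it was 0.91 over the 2485 pairs. These correlations describe 9 points that share library preparation and scaling, and a cause of the shared movement was not tested. Muscle markers took 1.41% of all FPKM in adapted/B6 replicate 1, the lowest tumor, and 7.52% in adapted/B6129SF1 replicate 3. In the latter, which had the largest summed FPKM (540514), the canonical genes were at a median of -0.02 from their means. As a share of all FPKM, the canonical genes took 16.9% and 17.8% in these 2 tumors and from 19.6% to 24.2% in the others. Whether muscle content played a part was not tested. The 2 tumors with the highest canonical levels had muscle markers at 0.00441% and 9.5e-04% of all FPKM. Adapted/B6129SF1 replicate 2 had them at 0.00405%, with its canonical genes at a median of 0.04 from their means.

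A few canonical genes departed from the common movement, all named after their values were seen. Rpl15, a large-subunit protein, had r = 0.34 with the canonical median, Rpl17, which lies near the exit of the peptide tunnel, had r = 0.23, and Rpl7a had r = -0.14, each over 9 tumors. Rpl17 was at 502, 510 and 736 FPKM in the original/B6129SF1 tumors, 560, 965 and 592 in the adapted/B6129SF1 tumors and 443, 943 and 671 in the adapted/B6 tumors. It was thus highest in replicate 2 of each adapted group, and the groups overlapped. Rpl15 was at 160, 118 and 183 FPKM in the original/B6129SF1 tumors, 103, 118 and 168 in the adapted/B6129SF1 tumors and 87.5, 218 and 110 in the adapted/B6 tumors, with its lowest and highest value in the same group. Rpl7a was at 288, 285 and 382 FPKM in the original/B6129SF1 tumors, 276, 222 and 230 in the adapted/B6129SF1 tumors and 266, 262 and 223 in the adapted/B6 tumors. Every adapted tumor was below every original/B6129SF1 tumor for Rpl7a, with log2 fold changes of -0.38 and -0.34 (limma, adjusted p = 0.145 and 0.207), neither past the threshold.

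The proportion between the subunits depended on how it was taken. The median small-subunit gene was 1.44 ± 0.0252 times the median large-subunit gene in the original/B6129SF1 group, 1.48 ± 0.11 in the adapted/B6129SF1 group and 1.5 ± 0.107 in the adapted/B6 group (mean ± SD of 3 tumors each). By this ratio the tumors overlapped between all groups, and the lowest values, 1.35 and 1.38, belonged to the muscle-rich adapted/B6129SF1 replicate 3 and adapted/B6 replicate 1. The summed small-subunit FPKM over the summed large-subunit FPKM was 0.925, 0.963 and 0.892 in the original/B6129SF1 tumors, 0.889, 0.879 and 0.879 in the adapted/B6129SF1 tumors and 0.891, 0.891 and 0.892 in the adapted/B6 tumors. By the sums, which the most abundant genes weigh on most, the adapted/B6129SF1 tumors lay below all original/B6129SF1 tumors, and the adapted/B6 tumors lay at or just below the lowest of them. The ratio of sums thus pointed the other way from the ratio of medians, and neither was tested. In both adapted groups the fold changes of each subunit were spread around a small negative median. Against the original/B6129SF1 group, the median log2 fold change was -0.11 for the large and -0.16 for the small subunit in the adapted/B6129SF1 group, and -0.12 and -0.13 in the adapted/B6 group.

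Whether adapted cells in the original host expressed these genes differently was addressed by comparing the adapted/B6129SF1 with the original/B6129SF1 group. Of the 81 genes, 79 reached at least 1 FPKM in at least 3 tumors and were tested by limma with Benjamini-Hochberg adjustment over all 10263 genes. Of these 79, 0 were called at an adjusted p under 0.05, where 8.28% of all genes tested were called. An unadjusted p under 0.05 was reached by 3 of the 79, or 3.8%, and by 26.5% of all genes tested. The median log2 fold change was -0.13 over the 79 genes and -0.03 over all genes tested, with 60 of the 79 below 0. Leaving out 1 of the original/B6129SF1 tumors moved the median to -0.19 (replicate 1), 0.01 (replicate 2) and -0.21 (replicate 3). In 11 of the 79 genes, or 13.9%, all adapted/B6129SF1 tumors were below all original/B6129SF1 tumors, where 15.9% of all genes tested were. None of the 79 had all adapted/B6129SF1 tumors above, where 13.6% of all genes tested did. The median 95% interval reached 0.44 on either side of the fold change, and for 74 of the 79 genes the whole interval lay within a log2 fold change of 1 in either direction.

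The comparison of adapted/B6 with original/B6129SF1, in which both cells and host differ and which shares the original/B6129SF1 tumors, gave 0 called genes of 79, where 6.75% of all genes tested were called by limma. An unadjusted p under 0.05 was reached by 4 of the 79, or 5.06%, and by 24.4% of all genes tested. The median log2 fold change was -0.13 over the 79 genes and -0.03 over all genes tested. Without original/B6129SF1 replicate 2 it was 0.01, without adapted/B6 replicate 1 it was 0.02, and without adapted/B6 replicate 2 it was -0.27. In 5 of the 79 genes, or 6.33%, all adapted/B6 tumors were below all original/B6129SF1 tumors, where 17.9% of all genes tested were, and in 0 they were above, where 14.9% were. For 76 of the 79 genes the 95% interval lay within a log2 fold change of 1.

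Between hosts, with the same adapted cells, the 79 genes lay close to no change. For adapted/B6 against adapted/B6129SF1, limma called 0 of the 79, where 0.0292% of all genes tested were called. An unadjusted p under 0.05 was reached by 0 of the 79 and by 6.27% of all genes tested. The median log2 fold change was -0.003, with 37 genes above and 42 below 0, and it was 0.15 without adapted/B6 replicate 1 and -0.15 without adapted/B6 replicate 2. The interquartile range ran from -0.05 to 0.04. In 0 genes were the groups separate, where 6.32% of all genes tested were higher and 5.42% lower without overlap. The largest differences were for Rps2 (0.37, adjusted p = 0.868), Rps19bp1 (0.20, adjusted p = 0.831) and Rpl29 (0.17, adjusted p = 0.907) upward, and for Rpl3l (-0.56, adjusted p = 0.951), Rpl41 (-0.21, adjusted p = 0.906) and Rpl35a (-0.09, adjusted p = 0.947) downward, all from limma. The interval reached 0.44 on either side of the median gene, so a difference of that size could not be seen at this number of tumors.

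**Figure D3:**
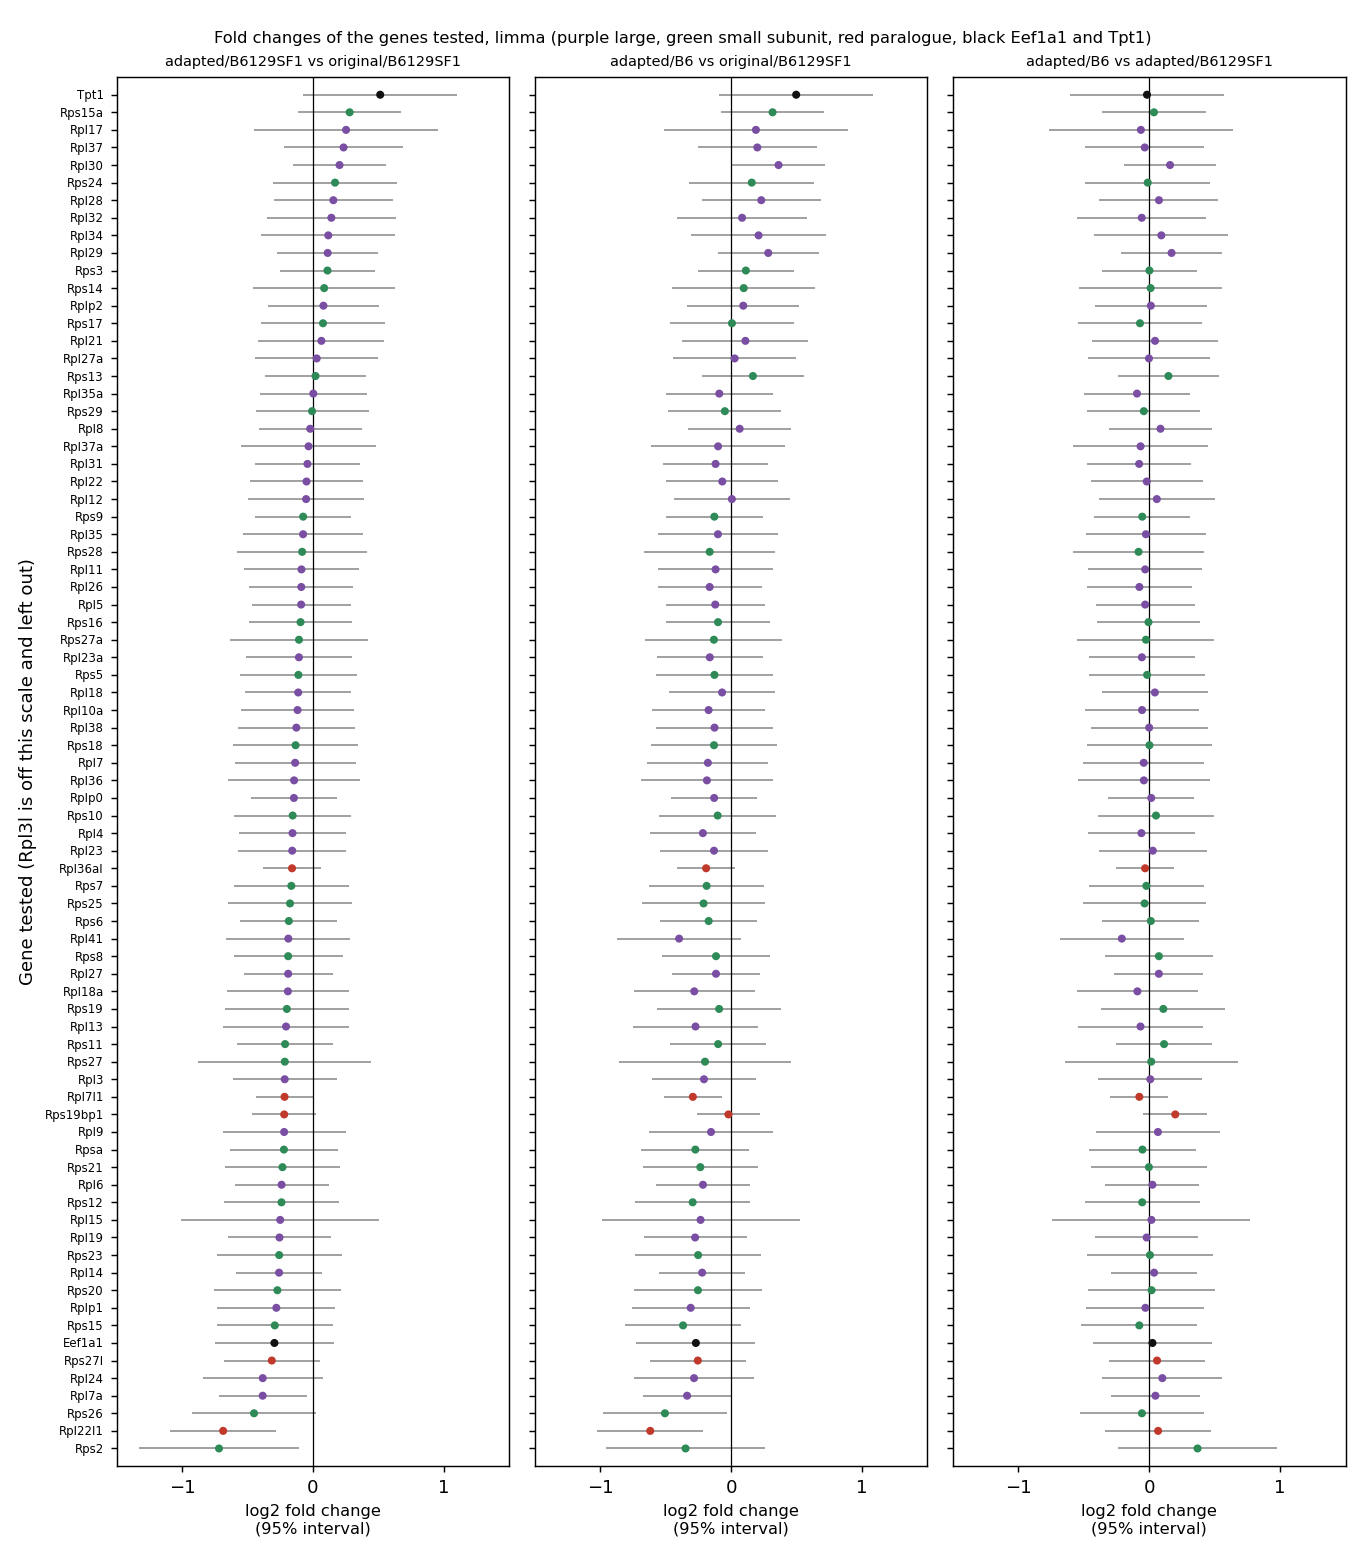
Log2 fold changes (points, coloured by class) with 95% intervals (lines) from limma for 78 of the 79 genes tested, in the 3 comparisons, ordered by the adapted/B6129SF1 against original/B6129SF1 value. Rpl3l is left out because its interval exceeds the axis. Most points lie slightly below 0 in the left and middle panels and around 0 in the right panel, and nearly all intervals include 0.

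The lowest canonical log2 fold changes against the original/B6129SF1 group were those of small-subunit genes, Rps2 in the adapted/B6129SF1 and Rps26 in the adapted/B6 group. Rps2, a protein of the mRNA entry site, was at 1500, 2051 and 983 FPKM in the original/B6129SF1 tumors, 692, 1100 and 895 in the adapted/B6129SF1 tumors and 1042, 1226 and 1150 in the adapted/B6 tumors. Original/B6129SF1 replicate 3 lay inside the adapted range, so the groups overlapped. The log2 fold changes were -0.72 (limma, SE 0.27, adjusted p = 0.134) in the adapted/B6129SF1 group and -0.35 (adjusted p = 0.474) in adapted/B6 tumors. Rps26 was at 3190, 4294 and 2790 FPKM in the original/B6129SF1 tumors, 2266, 2661 and 2492 in the adapted/B6129SF1 tumors and 1947, 2900 and 2366 in the adapted/B6 tumors. All adapted/B6129SF1 tumors were below the original/B6129SF1 tumors, while adapted/B6 replicate 2 was above original/B6129SF1 replicate 3. Its log2 fold changes were -0.45 (limma, SE 0.21, adjusted p = 0.211) and -0.51 (adjusted p = 0.183). Rps6, the substrate of the S6 kinases, had log2 fold changes of -0.18 and -0.17 (limma, adjusted p = 0.501 and 0.571). Rps15a, which had the highest canonical log2 fold change in the adapted/B6129SF1 group, stood at 0.28 there and at 0.32 in the adapted/B6 group (limma, adjusted p = 0.335 and 0.304). Rpsa, also known as the laminin receptor precursor, had log2 fold changes of -0.22 and -0.27 (limma, adjusted p = 0.466 and 0.399). Rps27a, made as a fusion with ubiquitin, was at 873 to 1606 FPKM over all tumors.

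Among large-subunit genes, Rpl30 had the highest canonical value in the adapted/B6 group. It was at 522, 682 and 468 FPKM in the original/B6129SF1 tumors, 571, 677 and 659 in the adapted/B6129SF1 tumors and 672, 773 and 683 in the adapted/B6 tumors. Original/B6129SF1 replicate 2 lay inside the adapted range. The log2 fold changes were 0.20 and 0.36 (limma, adjusted p = 0.429 and 0.194). Rpl41, the smallest ribosomal protein, was at 2497, 4059 and 2928 FPKM in the original/B6129SF1 tumors, 2702, 2631 and 2830 in the adapted/B6129SF1 tumors and 1980, 2821 and 2326 in the adapted/B6 tumors. Its log2 fold change in the adapted/B6 group was -0.40 (limma, adjusted p = 0.284). Rpl5 and Rpl11, which form a complex with 5S rRNA, had log2 fold changes between -0.12 and -0.09 in both adapted groups against the original/B6129SF1 group (adjusted p from 0.707 to 0.807 from limma). The stalk proteins Rplp0, Rplp1 and Rplp2, which recruit elongation factors, averaged 1080, 2342 and 2399 FPKM. Each of the 3 stalk genes was lowest in adapted/B6 replicate 1, at 924, 1742 and 1896 FPKM.

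Tpt1 stood above the other abundant members in both adapted groups. It was at 4570, 7553 and 5815 FPKM in the original/B6129SF1 tumors, 9709, 8006 and 7545 in the adapted/B6129SF1 tumors and 6410, 10644 and 8289 in the adapted/B6 tumors. Original/B6129SF1 replicate 2, in which nearly all canonical genes were high, overlapped both adapted groups. The log2 fold changes were 0.52 (limma, SE 0.26, adjusted p = 0.246) and 0.50 (adjusted p = 0.28), not past the threshold. When each tumor's median canonical level was first subtracted from every gene, so that changes are relative to the ribosomal protein genes, Tpt1 alone of the 79 was called. Relative to that median its log2 level rose by 0.64 in the adapted/B6129SF1 group (limma, SE 0.15, adjusted p = 0.0412) and, for the adapted/B6 tumors, by 0.62 (adjusted p = 0.0484). On that scale 2.52% and 2.33% of all genes tested were called. The calls were close to the threshold. Over 18 alternative settings the adjusted p ranged from 0.0051 to 0.228 in the adapted/B6129SF1 group, with 8 below 0.05, and from 0.00106 to 0.262 for the adapted/B6 tumors, with 9 below 0.05. The first call was lost without original/B6129SF1 replicate 1 or 2, adapted/B6129SF1 replicate 1, or adapted/B6 replicate 2 or 3, where the rise was 0.52, 0.64, 0.47, 0.64 and 0.64. The second was lost without original/B6129SF1 replicate 1 or 2 or any single adapted/B6 tumor, where the rise was 0.50 to 0.66.

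Eef1a1, its neighbour in level, had values in the other direction. It was at 7351, 8182 and 7125 FPKM in the original/B6129SF1 tumors, 6317, 6866 and 5372 in the adapted/B6129SF1 tumors and 5078, 7596 and 6353 in the adapted/B6 tumors. All adapted/B6129SF1 tumors lay below the original/B6129SF1 tumors and the adapted/B6 tumors overlapped them, with log2 fold changes of -0.29 and -0.27 (limma, adjusted p = 0.38 and 0.457). The ratio of Tpt1 to Eef1a1 within a tumor was 0.622, 0.923 and 0.816 in the original/B6129SF1 tumors, 1.54, 1.17 and 1.40 in the adapted/B6129SF1 tumors and 1.26, 1.40 and 1.30 in the adapted/B6 tumors. Tpt1 was therefore below Eef1a1 in every original/B6129SF1 tumor and above it in every adapted tumor. This ratio was chosen after its values were seen and was not tested. Both muscle-rich tumors lay within the range of the other adapted tumors.

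**Figure D4:**
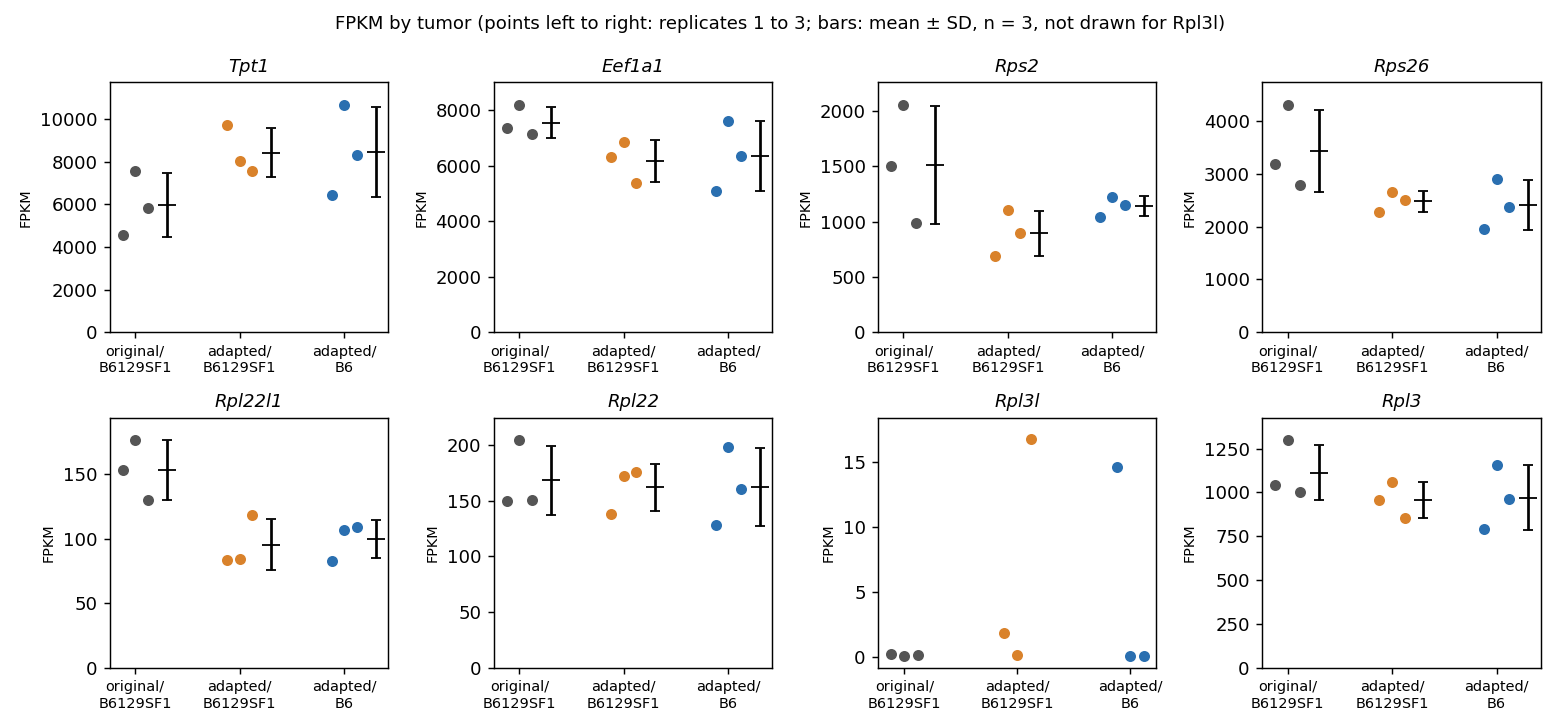
FPKM of Tpt1, Eef1a1, Rps2, Rps26, Rpl22l1, Rpl22, Rpl3l and Rpl3 in each tumor (points, replicates 1 to 3 from left to right), with mean ± SD (n = 3) beside each group except for Rpl3l. Rpl22l1 is lower in all 6 adapted tumors than in the original/B6129SF1 tumors while Rpl22 is not, and Rpl3l is high in adapted/B6129SF1 replicate 3 and adapted/B6 replicate 1, at 16.7 and 14.6 FPKM.

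Of the paralogues, Rpl22l1 had the lowest adjusted p of all members. Its protein can take the place of Rpl22 in the large subunit, and Rpl22 is known to repress it in mice. Rpl22l1 was at 153, 176 and 130 FPKM in the original/B6129SF1 tumors, 83.7, 84 and 118 in the adapted/B6129SF1 tumors and 82.6, 107 and 109 in the adapted/B6 tumors. The 6 adapted tumors all lay below the 3 original/B6129SF1 tumors. The log2 fold change was -0.69 (limma, SE 0.18, 95% interval -1.09 to -0.28, adjusted p = 0.0503) in the adapted/B6129SF1 group and -0.62 (95% interval -1.02 to -0.21, adjusted p = 0.0743) in adapted/B6 tumors. Neither passed the threshold, and the adjusted p ranged from 0.0185 to 0.133 and from 0.0344 to 0.199 over 18 alternative settings, with 4 and 2 below 0.05. Without the muscle-rich adapted/B6129SF1 replicate 3 the adjusted p was 0.0271 and 0.0423, without the muscle-rich adapted/B6 replicate 1 it was 0.052 and 0.199, and without both it was 0.0223 and 0.0995. Rpl22 itself was at 150, 204 and 151 FPKM in the original/B6129SF1 tumors, 138, 172 and 176 in the adapted/B6129SF1 tumors and 128, 198 and 160 in the adapted/B6 tumors, with overlapping groups and log2 fold changes of -0.05 and -0.07 (limma, adjusted p = 0.898 and 0.865). The ratio of Rpl22l1 to Rpl22 was 1.02, 0.864 and 0.859 in the original/B6129SF1 tumors, 0.605, 0.489 and 0.67 in the adapted/B6129SF1 tumors and 0.647, 0.54 and 0.68 in the adapted/B6 tumors. This ratio too was chosen after the values were seen and was not tested.

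**Figure D5:**
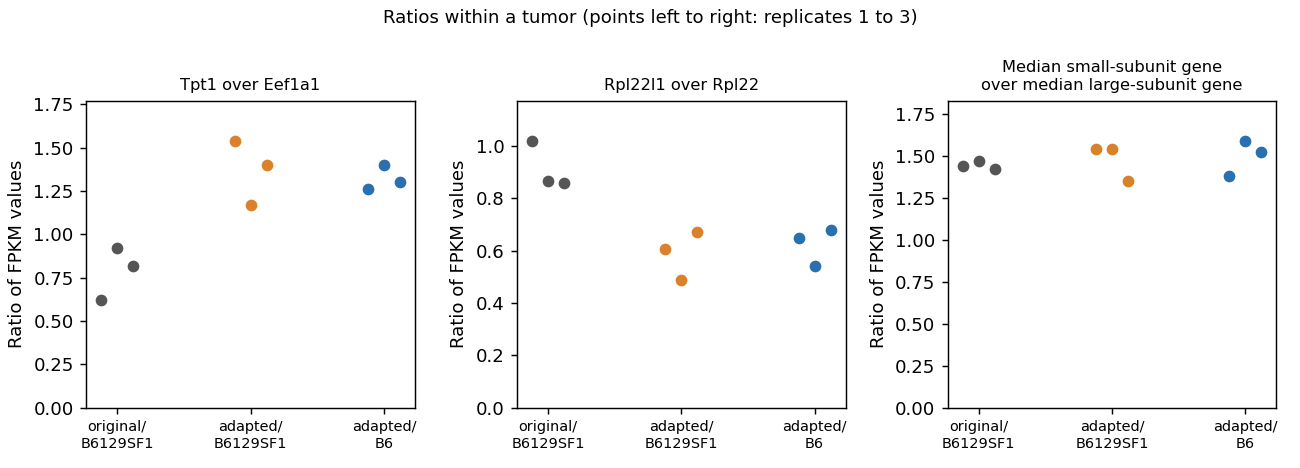
Ratios of FPKM within each tumor for Tpt1 over Eef1a1, Rpl22l1 over Rpl22, and the median small-subunit over the median large-subunit gene, with replicates 1 to 3 from left to right in each group. The first ratio is at most 0.923 in the original/B6129SF1 tumors and at least 1.17 in the adapted tumors, the second is at least 0.859 against at most 0.68, and the third overlaps between groups.

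Rpl3l, a paralogue of Rpl3 made in striated muscle, was highest where the muscle markers were highest. It was at 0.21, 0.0431 and 0.146 FPKM in the original/B6129SF1 tumors, 1.83, 0.113 and 16.7 in the adapted/B6129SF1 tumors and 14.6, 0.0753 and 0.0425 in the adapted/B6 tumors. The 3 tumors above 1 FPKM were the 3 with the highest share of muscle markers, at 0.165%, 7.52% and 1.41% of all FPKM. Ckm, muscle creatine kinase, was at 72.5, 3149 and 568 FPKM in the same tumors, and Eef1a2, the muscle and neuron counterpart of Eef1a1, was at 5.19, 122 and 41.6 FPKM. At its highest, Rpl3l reached 1.96% of the level of Rpl3, which was at 790 to 1296 FPKM. The log2 fold changes of Rpl3l were 1.76 (limma, SE 1.19, adjusted p = 0.377) and 1.20 (adjusted p = 0.587), neither past the threshold, and both 95% intervals included 0. Rpl3l met the filter of 1 FPKM in 3 tumors only through adapted tumors. The filter thus favoured fold changes above 0, and no conclusion is drawn from their direction.

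None of the other paralogues passed the test. Rps27l, a p53 target that resembles Rps27, was at 167, 194 and 169 FPKM in the original/B6129SF1 tumors, 116, 137 and 180 in the adapted/B6129SF1 tumors and 136, 145 and 164 in the adapted/B6 tumors. All adapted/B6 tumors were below the original/B6129SF1 tumors and adapted/B6129SF1 replicate 3 was not, with log2 fold changes of -0.31 and -0.25 (limma, adjusted p = 0.253 and 0.377). Rps27 was at 1881 to 4407 FPKM, and the ratio of Rps27l to Rps27 was 0.0621 ± 0.0175, 0.0573 ± 0.0128 and 0.0593 ± 0.0143 in the 3 groups (mean ± SD of 3 tumors each). Rpl36al, the autosomal counterpart of X-linked Rpl36a, was at 272 to 339 FPKM and had the smallest spread within groups of the paralogues tested, 0.08 on the log2 scale. Rpl7l1, which resembles Rpl7, was at 57.4, 49.5 and 53.4 FPKM in the original/B6129SF1 tumors and between 39.1 and 47.9 FPKM in the 6 adapted tumors, without overlap, with log2 fold changes of -0.22 and -0.29 (limma, adjusted p = 0.199 and 0.11). Rpl7 was at 1146 to 2028 FPKM. Rps19bp1, which encodes a regulator of Sirt1 that binds Rps19 and is no ribosome subunit, was at 25.1 to 34.2 FPKM. Rpl39l and Rpl10l, known from testis, were not tested. Rpl39l was listed at 0 in adapted/B6129SF1 replicate 1 and was at most 1.08 FPKM, and Rpl10l was listed at 0 in all 9 tumors.

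The rest of the translation machinery was measured with lists of other genes, most of which held at most 1 called gene in a comparison. The ribosome biogenesis factors, described below, held more. Of 8 elongation factor genes, 0 were called in any comparison, with 2 at an unadjusted p under 0.05 in each comparison with the original/B6129SF1 group, where 26.5% and 24.4% of all genes tested reached it. Eef1e1, a subunit of the aminoacyl-tRNA synthetase complex, had log2 fold changes of -0.56 and -0.61 (limma, adjusted p = 0.0618 and 0.0501). Of 33 initiation factor genes, 1 was called in each comparison with the original/B6129SF1 group, where 8.28% and 6.75% of all genes tested were called. The gene was Eif3g, a subunit of the factor that loads mRNA on the small subunit. It fell by 0.43 in each adapted group (limma, adjusted p = 0.0172 and 0.0176), from 96.8 to 107 FPKM in the original/B6129SF1 tumors to between 72.3 and 78.3 FPKM in the 6 adapted tumors. Of 7 other genes with TOP mRNAs or ribosome-associated products, among them Fau and Btf3, 0 were called, and the median log2 fold changes were -0.18 and -0.17.

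Ribosome biogenesis factors included the most called genes of these lists. Of 43, 5 were called lower and 0 higher in the adapted/B6129SF1 group, where 8.28% of all genes tested were called in either direction. In the adapted/B6 group 2 were called lower and 0 higher, where 6.75% of all genes tested were called. Of all 10263 genes tested, 402 and 284 were called lower in the 2 groups. Rrn3, which recruits RNA polymerase I to ribosomal DNA, fell on the log2 scale by 0.53 and 0.52 (limma, adjusted p = 0.0152 and 0.017). It was at 22.3, 19.9 and 21.1 FPKM in the original/B6129SF1 tumors and between 12.8 and 15.5 FPKM in the 6 adapted tumors, without overlap. Nob1, the nuclease that completes 18S rRNA, fell by 0.42 and 0.46 (limma, adjusted p = 0.0258 and 0.0203). The small-subunit assembly factors Ltv1 and Riok2, and Polr1c, a subunit of RNA polymerases I and III, fell in the adapted/B6129SF1 group by 0.44, 0.37 and 0.37 (limma, adjusted p = 0.0321, 0.0459 and 0.0318). They were not called in the adapted/B6 group. Whether the groups differ in this was not tested beyond the direct comparison, which called 0 of the 43. Against the original/B6129SF1 group, 37 of the 43 were below 0 in the adapted/B6129SF1 group (median -0.22) and 30 in the adapted/B6 group (median -0.07). Of all 10263 genes tested, 5568 and 5532 were. In adapted/B6 against adapted/B6129SF1, 36 of the 43 were above 0 (median 0.13), where 5284 of all genes tested were. These directions were not tested.

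Against the original/B6129SF1 group, 8.28% of all genes tested were called in the adapted/B6129SF1 group and 6.75% in the adapted/B6 group. Of 74 mitochondrial ribosomal protein genes, which serve the separate ribosome of that organelle, 0 were called in the adapted/B6129SF1 group. In the adapted/B6 group 1 was called, Mrpl4, which fell by 0.35 (limma, adjusted p = 0.0371). Of 65 nuclear genes of the respiratory chain, another set of short abundant transcripts, 0 were called in any comparison, with median log2 fold changes of 0.11 and -0.02 against the original/B6129SF1 group. The median gene of that list was at 185 FPKM in the muscle-rich adapted/B6129SF1 replicate 3, and at 118 and 132 FPKM in replicates 1 and 2. Of 21 regulators of ribosomal protein synthesis, such as Mtor, Larp1, Myc and the S6 kinase genes, 0 were called in the adapted/B6129SF1 group and 1 in the adapted/B6 group. The latter was Max, the partner of Myc, which fell by 0.34 (limma, adjusted p = 0.0491). For Rptor, the mTORC1 scaffold, the difference in the adapted/B6129SF1 group was -0.42 on the log2 scale (limma, adjusted p = 0.143).

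The cell composition of the tumors was followed with marker lists beside these values. Summed over 16 cell cycle genes, FPKM ran from 653 to 934 in the original/B6129SF1, 364 to 815 in the adapted/B6129SF1 and 695 to 754 in the adapted/B6 tumors, and 0 of the 16 were called. All 16 had log2 fold changes below 0 in the adapted/B6129SF1 group (median -0.32) and 10 of 16 in the adapted/B6 group (median -0.07), against the original/B6129SF1 group. The sum of 364 FPKM was that of adapted/B6129SF1 replicate 1 alone, and replicates 2 and 3, at 815 and 675, lay within the original/B6129SF1 range. Of all 10263 genes tested, 5568 and 5532 were below 0 in the adapted/B6129SF1 and adapted/B6 groups. Of 16 leukocyte markers, 12 were tested, and 10 and 11 of these had log2 fold changes above 0 in these groups, with medians of 0.70 and 0.81. An unadjusted p under 0.05 was reached by 8 and 7 of the 12, and by 26.5% and 24.4% of all genes tested. Only 1 of the 12 was called in each group, where 8.28% and 6.75% of all genes tested were called. This was Cd3g, a T cell receptor chain, which rose by 1.5 and 1.95 (limma, adjusted p = 0.0393 and 0.017). The summed markers ran from 1397 to 1654, 1684 to 2698 and 1158 to 2023 FPKM in the 3 groups. Of 7 thyroid and epithelial markers tested, only Krt8 was called, with log2 fold changes of -1.32 and -1.12 (limma, adjusted p = 0.0189 and 0.0346). The list as a whole did not follow Krt8 in both groups. In the adapted/B6129SF1 group 6 of the 7 were below 0 and 1 above (median -0.52). In the adapted/B6 group 2 were below and 5 above 0 (median 0.01). Of 10 fibroblast and endothelial markers, 0 were called, and of 17 muscle markers 0 were called, with all 17 above 0 in both comparisons with the original/B6129SF1 group. The muscle markers did not rise in every adapted tumor. Their share of all FPKM was 0.00405% in adapted/B6129SF1 replicate 2 and 9.5e-04% in adapted/B6 replicate 2. These lay below the original/B6129SF1 tumors, at 0.00441% to 0.0305%, while the other adapted tumors lay above them, at 0.0602% to 7.52%. What part these cells had in the values of the ribosomal protein genes was not tested.

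The genes outside the set whose levels were most like the canonical median over the 9 tumors, among 8043 with a mean of at least 5 FPKM, were Spata6 (Pearson's r = 0.966), the DNA repair gene Xpa (r = 0.958), Lyrm2 (r = 0.954), Gtf2b, a general factor of RNA polymerase II transcription (r = 0.951), and Eif3i, another subunit of the initiation factor that holds Eif3g (r = 0.946). Each of the 5 was highest in original/B6129SF1 replicate 2. Xpa was at 21.5, 33.3 and 21 FPKM in the original/B6129SF1 tumors, 21.1, 22.8 and 21.3 in the adapted/B6129SF1 tumors and 17.1, 25.1 and 21.6 in the adapted/B6 tumors. For Xpa, as for the canonical median, adapted/B6 replicate 2 came second and adapted/B6 replicate 1 last.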

How the data were processed

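Total RNA of 9 whole tumors was sequenced as paired-end TruSeq libraries on a HiSeq2000. The authors checked reads with FastQC, aligned them to mm10 with HISAT2 and deposited 1 table of FPKM values, scaled across the 9 tumors with Cuffnorm. The annotation, the scaling method and the handling of reads that match several copies are not given in the sources used here. Read counts and depth were not used here, so no counting error is given, and 3 tumors per group limit the precision. The deposited labels name the organism as human, but the symbols, build and methods are murine.

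Values entered the model as log2(FPKM + 1), on which scale changes of low genes come out too small, and the 10263 genes that reached 1 FPKM in 3 or more tumors were tested. Groups were compared with limma 3.58.1 (R 4.3.3, empirical Bayes with trend) in one model of 9 tumors, with Benjamini-Hochberg adjustment over all genes tested and a threshold of 0.05. The fit was run on simulated data of independent genes, 200 of which were given a log2 change of 2. It recovered 97% of these, with 7 false calls. Smaller changes and genes that move together were not simulated, so this does not measure the power for the ribosomal protein genes. A second fit subtracted each tumor's median log2(FPKM + 1) of the 71 canonical genes. The replicates are separate mice, and same-numbered tumors are different mice, so numbers were not used to pair them. A planned permutation test of the summed share is not given, since the members were chosen with results known.

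The members and the 12 gene lists were chosen with earlier results of these data known. Named by rule were members called, or else the 3 highest and 3 lowest fold changes per comparison, the 3 highest and 3 lowest levels, paralogues with their partners, 10 members of special role, members listed at 0, called genes of the other lists or their largest changes, and the 5 most similar other genes. Rpl15, Rpl17, Rpl7a and Rpl21 were named after their values were seen. Alternatives were another pseudocount, 2 other filters, only the groups compared, a replicate block, 2 scalings, no trend, omission of both muscle-rich tumors, and omission of each tumor in turn. Rpl10, Rpl13a, Rpl36a, Rpl39, Rps3a1 and Rps4x were not among the 17369 genes of the expression table under these symbols, so the canonical set is without them. Genes are named by symbol alone, because no mouse sequence or coordinates were used here.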

Additional observations from a re-analysis of the deposited data

How the results depend on the processing

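With the pseudocount at 0.1, 1 ribosomal protein gene was called in the adapted/B6129SF1 group against the original/B6129SF1 group (Rpl22l1), as with FPKM rescaled to a fixed total of 1000000 (1) and without both muscle-rich tumors (1), and with 1 tumor left out the count ran from 0 to 1. In the adapted/B6 group it was 1 after rescaling (Rpl22l1) and 0 to 1 with 1 tumor left out. The gene called in both groups without adapted/B6129SF1 replicate 3 was Rpl22l1. Rescaling gave Rpl22l1 a log2 fold change of -0.70 (limma, adjusted p = 0.0185) and -0.60 (adjusted p = 0.0344). Relative to the canonical median, the count of called genes fell from 1 to 0 in both groups without a filter, with rescaling, without the trend and with the replicate block, and to 0 in the adapted/B6129SF1 group with only the groups compared. It rose to 2 in the adapted/B6 group with at least 5 FPKM required (Rps26 and Tpt1), and ran from 0 to 1 in both with 1 tumor left out. The causes were not tested.

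The median log2 fold change of the 79 genes changed sign with single tumors. Against the original/B6129SF1 group it ran from -0.21 to 0.01 in the adapted/B6129SF1 group and from -0.27 to 0.02 in the adapted/B6 group, above 0 without original/B6129SF1 replicate 2 and, in the second, without adapted/B6 replicate 1. Between the adapted groups it ran from -0.15 to 0.15. Without both muscle-rich tumors the second was 0.02 and the third 0.15. The difference in summed share ran from -2.60 to -0.15, from -3.15 to 0.59 and from -1.52 to 2.22 percentage points in the 3 comparisons, and was nearest 0 in the first without original/B6129SF1 replicate 2 and, at -0.435, without adapted/B6129SF1 replicate 3. The ends of the other ranges came without adapted/B6 replicate 2 (lowest) and adapted/B6 replicate 1 (highest). The sign changed in the second also without original/B6129SF1 replicate 2 (0.276), and in the third without adapted/B6 replicate 2 and adapted/B6129SF1 replicate 3 (-0.765). With the replicate block, 0 genes were called in each comparison, and Tpt1 relative to the canonical median had adjusted p = 0.0993 and 0.115 from limma. Same-numbered tumors are different mice, and the correlations of their deviations ran from -0.39 to 0.61. No scaling moved the median of all genes by more than 0.03 on the log2 scale.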
